A study of Homo sapiens with 20 samples.

Results

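Collagen chain genes encode the alpha chains from which collagens, the main structural proteins of the extracellular matrix, are assembled. They were taken as every gene whose symbol has the form COL, number, A, number, which gave 44 of the 25411 genes counted. RNA had been sequenced from BEAS-2B, a line immortalised from human bronchial epithelium, in 20 libraries of 7 groups, and all groups share this line and its growth medium. The short experiment compares unexposed cells (Control_3D, 4 libraries) with cells given nickel chloride for 3 days (Ni_3D, 2 libraries) and with cells labelled as that exposure plus 14 days (Ni_3D+14D, 2 libraries). The long experiment compares unexposed cells (Control_6W, 2 libraries) with cells given nickel for 6 weeks (Ni_6W, 2 libraries) and with such cells after washing and 2 weeks without nickel (Ni_6W+2W, 2 libraries). Ni_clone stands for 6 populations, each expanded without nickel from 1 picked colony of the long-exposed cells and each sequenced in 1 library. The labels give 100 mM nickel chloride for the cells plated for colonies and only "various" concentrations otherwise, so doses are not compared. No unexposed clones and no unexposed cells carried through a wash are among these libraries, so cloning and time in culture cannot be told apart from past exposure.

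Each collagen molecule is a trimer. Fibrillar collagens (types I, II, III, V, XI, XXIV and XXVII) make or seed fibrils, type IV makes the sheet of basement membranes, type VI makes beaded filaments, type VII makes the fibrils that anchor epithelium, and FACIT collagens sit on the surface of fibrils. Type I collagen of connective tissue combines COL1A1 and COL1A2 chains, and COL5A1 chains take part in starting fibrils. Many collagen genes are raised when epithelial cells take on mesenchymal features, and enzymes that hydroxylate proline in the new chains, some of which are oxygen-regulated, are needed for a stable triple helix.

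The 44 genes fall into 11 fibrillar, 9 network-forming (types IV, VIII and X), 6 of types VI and VII, 10 FACIT, 4 transmembrane, 2 multiplexin and 2 other chain genes. In the 14 libraries that are not clones 29 had enough reads for a test: 9 fibrillar, 8 network-forming, 4 of types VI and VII, 4 FACIT, 2 transmembrane and both multiplexin genes. The other 15 had at most 53 reads in any library, and COL9A1 and COL6A5 had none; they were not tested. This group of untested genes held COL3A1, the partner of type I collagen in soft connective tissue, with 56 reads over all 20 libraries.

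Where the data bear on a gene's start, its reference sequence is given here for the genes named below whose levels differed or which lie head to head. The stretches are the 250 bases before the annotated start, or the bases between 2 starts, from RefSeq (GRCh38.p14), and capitals mark motifs found on either strand: the E-box CACCTG that ZEB1 can bind, the core ACGTG or GCGTG of hypoxia response elements, the CCAAT box and the GC box GGGCGG. COL27A1 is shown because it was called after 3 days of nickel, COL5A1 because it was called in the clones, COL4A3 because it is 1 of 5 collagen genes that hold the E-box, and the last because COL4A1 and COL4A2 share it.
COL27A1 chr9:114155287-114155536 (+ strand): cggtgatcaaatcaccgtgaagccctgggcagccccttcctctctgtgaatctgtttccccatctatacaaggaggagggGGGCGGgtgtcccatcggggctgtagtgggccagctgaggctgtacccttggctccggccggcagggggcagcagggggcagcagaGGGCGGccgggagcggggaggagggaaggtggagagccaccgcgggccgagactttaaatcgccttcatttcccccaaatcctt
COL5A1 chr9:134641553-134641802 (+ strand): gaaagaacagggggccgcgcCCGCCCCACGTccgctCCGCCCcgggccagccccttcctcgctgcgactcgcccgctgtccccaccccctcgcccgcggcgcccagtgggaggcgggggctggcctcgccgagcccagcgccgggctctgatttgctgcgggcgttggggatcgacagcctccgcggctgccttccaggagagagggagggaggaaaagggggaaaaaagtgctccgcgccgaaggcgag
COL4A3 chr2:227164374-227164623 (+ strand): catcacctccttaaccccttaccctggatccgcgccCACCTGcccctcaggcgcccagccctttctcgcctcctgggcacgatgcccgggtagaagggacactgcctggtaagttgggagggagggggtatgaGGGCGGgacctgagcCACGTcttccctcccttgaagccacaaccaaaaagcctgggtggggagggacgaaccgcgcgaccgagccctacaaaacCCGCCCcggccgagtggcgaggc
COL4A1 and COL4A2 chr13:110307158-110307283 (+ strand): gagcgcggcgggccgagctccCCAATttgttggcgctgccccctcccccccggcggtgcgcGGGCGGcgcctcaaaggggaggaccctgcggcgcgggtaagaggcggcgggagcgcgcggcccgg
Of the 44 genes 32 had an entry in the sequence table. The E-box was in 15.6% of these 32 and in 17.5% of all 27305 genes with an entry, the hypoxia core in 40.6% and 43.1%, the CCAAT box in 28.1% and 33%, and the GC box in 56.2% and 42.3%. COL27A1 and COL5A1 hold no E-box in these 250 bases, and a match is a description of the letters, not a binding site.

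Per length, COL1A1, the alpha-1 chain of type I collagen, had the highest mean of the collagen genes, 454 RPKM (reads per kilobase of transcript scaled to library size, as deposited) over the 20 libraries. In Ni_3D replicate 2 it was not the highest, at 75.3 RPKM beside 164 RPKM of COL6A2, 121.5 RPKM of COL6A1 and 114.8 RPKM of COL4A2. COL4A2 (mean 141 RPKM) and COL4A1 (mean 51.8 RPKM), the common basement membrane pair, were also among the 10 genes with a mean of at least 10 RPKM. The rest of those 10 were COL6A1 (106 RPKM), COL12A1 (95.5 RPKM), COL6A2 (85.2 RPKM), COL18A1 (76.4 RPKM), COL5A1 (35.3 RPKM), COL7A1 (31.7 RPKM) and COL4A5 (12.8 RPKM). Ranges of neighbours in this order overlap: COL4A2 ran from 86.1 to 207 RPKM and COL6A1 from 71.9 to 219 RPKM. In contrast, 19 genes stayed under 1 RPKM in every library.

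**Figure D1:**
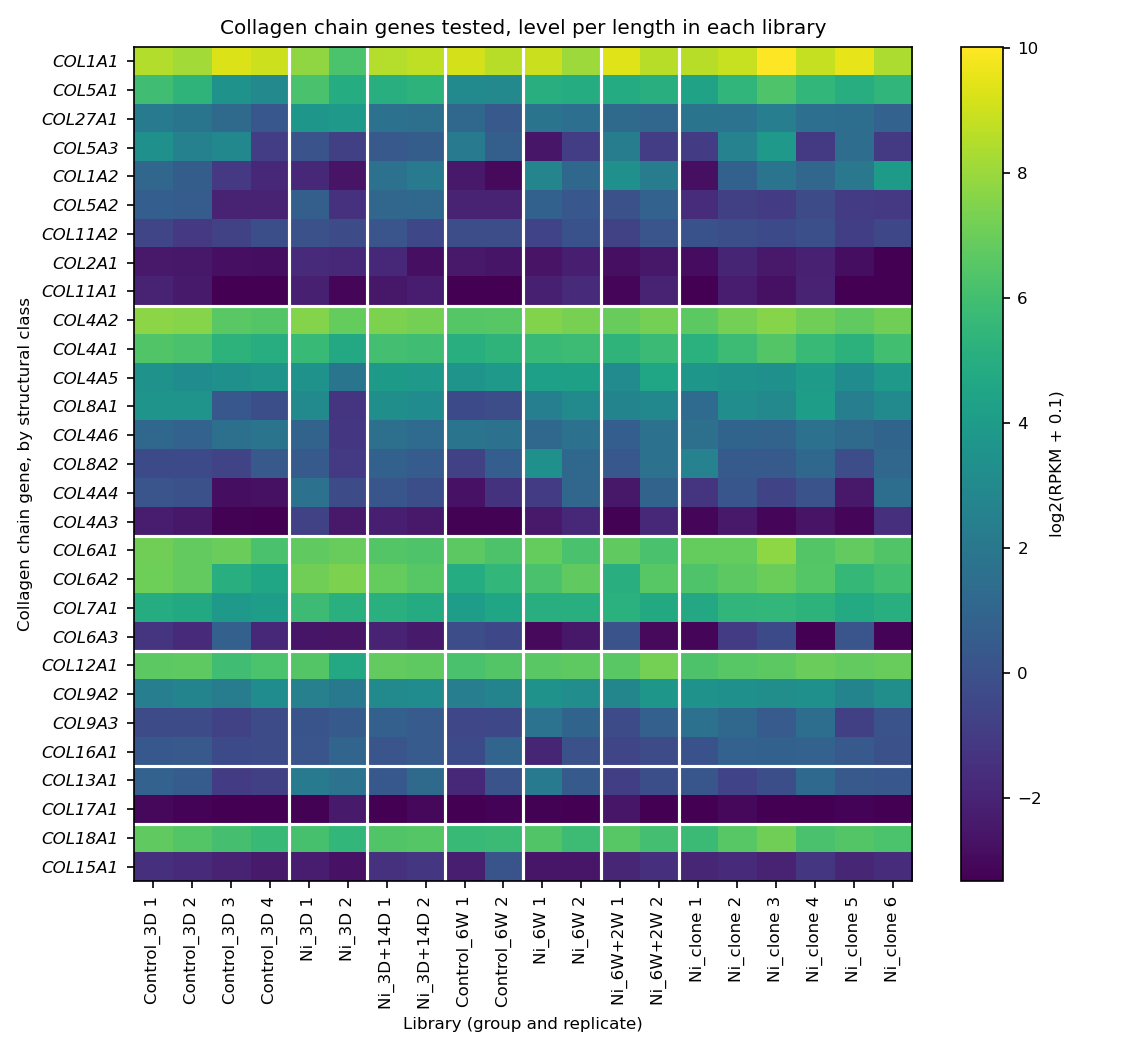
Level of the 29 collagen chain genes tested (rows, by structural class) in each of the 20 libraries (columns, by group and replicate), as log2(RPKM + 0.1). COL1A1 has the highest mean, with 75.3 to 1033 RPKM, while COL1A2 runs from 0.0278 to 15.4 RPKM and COL5A3 from 0.0742 to 15.0 RPKM.

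Collagen genes together held from 0.414% (Ni_3D replicate 2) to 1.43% (clone 3) of the reads of a library. COL1A1 made up 12.2% of those collagen reads in Ni_3D replicate 2 and 56.8% in Control_3D replicate 3. COL1A2 is the partner of COL1A1 in type I collagen. The RPKM of COL1A1 over that of COL1A2 ran from 21.8 (clone 6) to 14010 (Control_6W replicate 2), with a median of 210. The highest ratio rests on 3 COL1A2 reads.

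The libraries hold 8609243 to 88848786 reads. Control_3D replicate 1 and Ni_3D replicate 1 alone held ESR1 reads and more than trace TFF1, and the summed level of 6 markers of oestrogen receptor positive breast cells was 78.0 and 156 CPM there and at most 4.60 CPM elsewhere. Of 8 bronchial epithelial markers KRT8 (187 to 831 CPM), KRT18 (135 to 386 CPM) and EPCAM (1.59 to 9.58 CPM) were present in every library. CDH1 was at most 2.06 CPM and KRT19 at most 2.45 CPM outside the same 2 libraries. Ni_6W+2W replicate 1 held 4.02 CPM of KRT5, 2.92 CPM of KRT14 and 0.213 CPM of TP63. Elsewhere they were at most 0.731, 0.472 and 0.0222 CPM. Of the 7 fibroblast markers (DCN, LUM, PDGFRA, PDGFRB, THY1, FAP and TWIST2) PDGFRB, THY1 and TWIST2 were present in every library. DCN, LUM, PDGFRA and FAP were at most 0.0444, 1.41, 0.184 and 0.813 CPM, each at 0 in some libraries. Nearest neighbours by correlation crossed groups for 7 libraries, and no 2 libraries agreed within sampling noise (lowest chi-square per degree of freedom 8.99 among 190 pairs). The labels do not say that replicates came from separate cultures, and the p-values then cover no more than the spread among these samples. In bulk RNA fewer cells of a type and less RNA per cell cannot be told apart.

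Within Control_3D the collagen genes did not agree between replicates. COL5A1, whose chain takes part in starting fibrils, was at 591 and 389 CPM (counts scaled to library size) in replicates 1 and 2 and at 110 and 74.5 CPM in replicates 3 and 4. The network-forming COL8A1 was at 41.8 and 42.3 CPM in the first pair and at 4.02 and 2.82 CPM in the second. For COL6A2, a chain of type VI collagen, the same libraries gave 528, 430, 136 and 87.9 CPM. These genes were thus several times higher in replicates 1 and 2, and replicates 3 and 4 lay near Control_6W, where COL5A1 was at 79.2 and 79.8 CPM and COL8A1 at 2.41 and 2.88 CPM. ZEB1, a repressor of epithelial genes, went the same way with 11.9 and 12.4 CPM in replicates 1 and 2 and 1.04 and 1.76 CPM in replicates 3 and 4. TWIST2, a fibroblast marker, did so too, with 9.06 and 8.77 CPM in the first pair and 3.44 and 2.35 CPM in the second. The fibroblast markers PDGFRB and THY1 went the other way. PDGFRB was at 125 and 115 CPM in replicates 1 and 2 and at 163 and 183 CPM in replicates 3 and 4. THY1 was at 477 and 362 CPM in the first pair and at 551 and 531 CPM in the second. The summed level of the 7 fibroblast markers was 611, 486.5, 717 and 716 CPM. The part of these markers in the result was not tested. For the collagen genes described below, calls against Control_3D are also given without a pair of replicates where leaving it out changed them. Which pair represents the unexposed state was not tested.

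**Figure D2:**
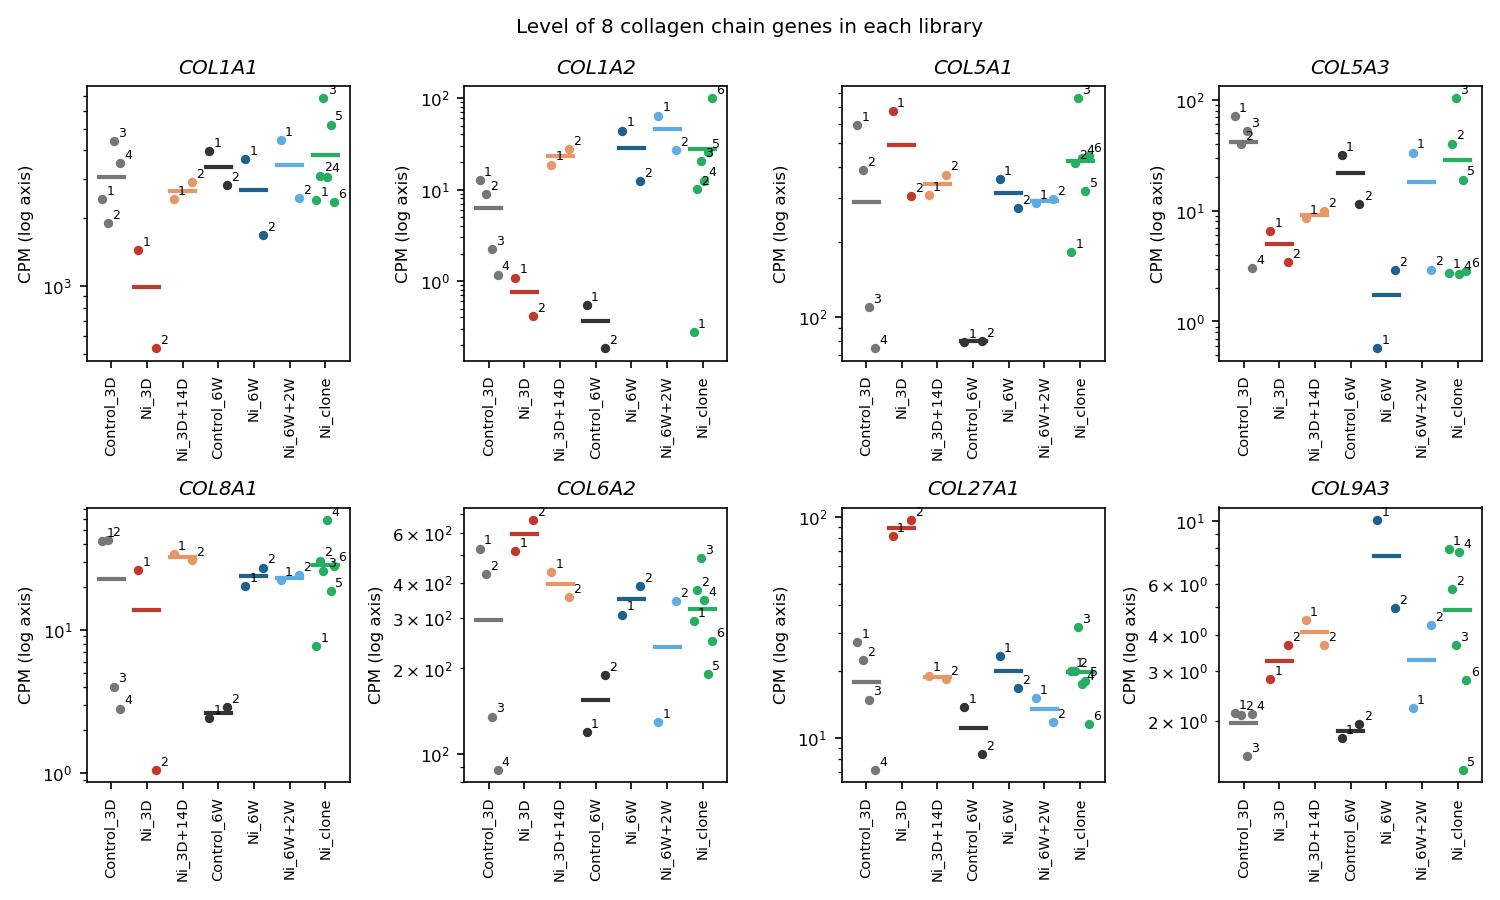
CPM on a log axis of 8 collagen genes in each library (points, numbered by replicate or clone; short bars are group means), by group. COL27A1 is highest in Ni_3D at 82.0 and 96.9 CPM, COL1A2 is lowest in Control_6W replicate 2 at 0.184 CPM, and COL5A1 and COL8A1 split Control_3D into replicates 1 and 2 and replicates 3 and 4.

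After 3 days of nickel 1 of the 29 genes was called, COL27A1, at an adjusted p under 0.05 by edgeR's quasi-likelihood test; 4.33% of all 14927 genes tested were called, 2.83% higher and 1.51% lower. At an unadjusted p under 0.05 there were 10 collagen genes (34.5%, against 24.3% of all genes). COL27A1 encodes a fibrillar chain known from cartilage. It was at 82.0 and 96.9 CPM in Ni_3D and at 27.3, 22.5, 14.9 and 7.17 CPM in Control_3D. Every Ni_3D library lay above every control. The log2 fold change was 2.31 (SE 0.37, adjusted p = 0.0092 in edgeR, Benjamini-Hochberg adjusted), and without Control_3D replicate 1 and Ni_3D replicate 1 it was 2.69 (adjusted p = 0.033). The call was lost without Ni_3D replicate 2, which left 1 Ni_3D library, at a log2 fold change of 2.17. COL27A1 was back at 19.2 and 18.6 CPM in Ni_3D+14D, within the Control_3D range; the difference from Ni_3D, -2.26 on the log2 scale (SE 0.47), missed the threshold (adjusted p = 0.073).

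Over the 29 genes in this comparison, 17 had a positive and 12 a negative log2 fold change, with a median of 0.05 beside 0.03 over all genes. The 2 Ni_3D libraries lay above all 4 controls for 5 genes (17.2%, against 19.8% of all genes tested) and below them for 3 (10.3%, against 18.8%). COL7A1, COL13A1, COL9A3, COL2A1 and COL27A1 were the 5, and COL1A1, COL1A2 and COL6A3 the 3. COL7A1, the chain of anchoring fibrils, was at 571 and 383 CPM against 153 to 319 CPM in the controls (log2 fold change 1.02, SE 0.29, adjusted p = 0.061). COL13A1, a transmembrane collagen of cell contacts, was at 14.4 and 11.2 CPM against 1.31 to 5.79 CPM (1.95, SE 0.71, adjusted p = 0.12). Neither passed in edgeR with all libraries. DESeq2 with all libraries called both, at 1.02 (adjusted p = 0.016) and 1.96 (adjusted p = 0.049). COL7A1 passed without Control_3D replicate 1 (1.19, adjusted p = 0.041), and without replicates 1 and 2 both passed, at 1.49 (adjusted p = 0.013) and 3.23 (adjusted p = 0.037).

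The type I chains were lower in Ni_3D without passing the edgeR test. DESeq2 called both lower, COL1A1 at -1.63 (adjusted p = 0.0040) and COL1A2 at -3.06 (adjusted p = 0.018). COL1A1 was at 1449 and 529 CPM in Ni_3D and at 1911 to 4405 CPM in Control_3D (log2 fold change -1.61, SE 0.48, adjusted p = 0.071). COL1A2 was at 1.09 and 0.413 CPM in Ni_3D and at 12.6, 8.87, 2.24 and 1.18 CPM in Control_3D (-3.11, SE 0.97, adjusted p = 0.083). Without Control_3D replicates 1 and 2 COL1A1 passed (-2.0, adjusted p = 0.035) and COL1A2 was -1.29, and without replicates 3 and 4 COL1A2 passed (-3.87, adjusted p = 0.038). Without Control_3D replicate 1 and Ni_3D replicate 1 the log2 fold change of COL1A1 was -2.63 (adjusted p = 0.079). Of the 7 fibroblast markers PDGFRB was called lower in Ni_3D, at 85.4 and 45.3 CPM against 115 to 183 CPM (-1.15, SE 0.28, adjusted p = 0.041), and THY1 was at 340 and 333 CPM against 362 to 551 CPM without passing (adjusted p = 0.14). TWIST2 did not fall with them, at 7.45 and 8.20 CPM in Ni_3D and at 9.06, 8.77, 3.44 and 2.35 CPM in Control_3D. The summed level of the 7 markers was 433 and 386 CPM in Ni_3D and 486.5 to 717 CPM in Control_3D. DCN, LUM, PDGFRA and FAP were at most 0.219 CPM in these libraries. The part of the 7 markers in the result was not tested, nor was the call of PDGFRB with libraries left out.

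COL5A1 overlapped the controls, at 674 and 306 CPM (0.76, SE 0.65, adjusted p = 0.50); without Control_3D replicates 1 and 2 it passed at 2.41 (adjusted p = 0.0037) and without replicates 3 and 4 it was 0.00. COL5A3, the third type V chain, was at 6.50 and 3.42 CPM in Ni_3D and at 72.0, 39.6, 52.2 and 3.06 CPM in Control_3D (-3.07, SE 1.22, adjusted p = 0.15), so only the fourth control was as low. Without Control_3D replicates 1 and 2 the number of collagen genes called was 9 in place of 1, and that of all genes 1174 in place of 647. COL1A1 was called lower. COL4A3, COL4A4, COL5A1, COL5A2, COL6A2, COL7A1, COL13A1 and COL27A1 were called higher.

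At Ni_3D+14D none of the 29 genes was called by edgeR, nor were any of all genes (0%); at an unadjusted p under 0.05 there were 2 collagen genes and 613 genes in all (4.11%). Both libraries lay above every control for 7 collagen genes (24.1%, against 11.2% of all genes tested) and below for 0 (against 10.8%), with 25 positive and 4 negative log2 fold changes and a median of 0.37 beside 0. COL1A2 was at 18.7 and 27.4 CPM, above every Control_3D library (log2 fold change 1.84, SE 0.77, adjusted p = 0.98). Without Control_3D replicates 1 and 2 its fold change passed at 3.67 (adjusted p = 0.047), as did COL5A1 and COL5A2, both higher, among 112 genes called in all. Set beside Ni_3D, COL1A2 was 4.95 higher on the log2 scale (SE 1.10), with no overlap, but missed the threshold (adjusted p = 0.085 in edgeR, Benjamini-Hochberg adjusted); no collagen gene was called there, against 0.255% of all genes, 0.121% higher and 0.134% lower, and 8 had an unadjusted p under 0.05 (27.6%, against 12.6%). Ni_3D+14D lay above Ni_3D for 14 genes (48.3%, against 27.4%) and below it for 6 (20.7%, against 26.9%). COL5A3 was at 8.54 and 9.83 CPM, within the controls' range (-2.19, SE 1.16, adjusted p = 0.98).

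After 6 weeks 2 of the 29 genes were called, both higher, against 2.46% of all genes, 1.25% higher and 1.21% lower. At an unadjusted p under 0.05 there were 14 (48.3%, against 26.7% of all genes). COL1A2, the alpha-2 chain of type I collagen, had 10 and 3 reads in Control_6W, 0.547 and 0.184 CPM, and 44.1 and 12.4 CPM in Ni_6W. The groups did not overlap. Its log2 fold change was 6.24 (SE 1.26, adjusted p = 0.0497 in edgeR, Benjamini-Hochberg adjusted), and it rested on each library but Ni_6W replicate 2: without Control_6W replicate 1 the adjusted p was 0.073, without Control_6W replicate 2 it was 0.21 and without Ni_6W replicate 1 it was 0.25. COL9A3, a chain of the FACIT type IX, was at 10.1 and 4.95 CPM in Ni_6W and at 1.75 and 1.96 CPM in Control_6W (2.03, SE 0.46, adjusted p = 0.0497). It too was lost without Control_6W replicate 1 (adjusted p = 0.10), Control_6W replicate 2 (adjusted p = 0.21) or Ni_6W replicate 1 (adjusted p = 0.25).

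COL1A1, the partner of COL1A2, was at 3656 and 1685 CPM in Ni_6W and at 3956 and 2817 CPM in Control_6W, which overlap. COL5A1 was at 358 and 274 CPM against 79.2 and 79.8 CPM (1.99, SE 0.80, adjusted p = 0.14). COL8A1 was at 20.3 and 27.3 CPM against 2.41 and 2.88 CPM (3.17, SE 1.47, adjusted p = 0.20). The Ni_6W libraries of both genes lay above both Control_6W libraries, without passing the edgeR test. They lay below Control_3D replicates 1 and 2, at 591 and 389 CPM of COL5A1 and 41.8 and 42.3 CPM of COL8A1. COL5A3 went the other way, at 0.570 and 2.92 CPM against 31.9 and 11.6 CPM (-3.77, SE 1.44, adjusted p = 0.13). Ni_6W lay above Control_6W for 18 of the 29 genes (62.1%, against 24.5% of all genes tested) and below it for 4 (13.8%, against 22.5%), with a median log2 fold change of 0.64 beside 0.03. The 4 were COL4A6, COL15A1, COL6A3 and COL5A3.

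The log2 fold change of COL1A2 was negative in Ni_3D, where edgeR did not call it, and positive in Ni_6W. Without Control_3D replicates 1 and 2 the Ni_3D value was -1.29 (adjusted p = 0.28 in edgeR). The 2 sets of controls differed. COL1A2 was at 12.6, 8.87, 2.24 and 1.18 CPM in Control_3D and at 0.547 and 0.184 CPM in Control_6W, beside 1.09 and 0.413 CPM in Ni_3D. Its response in Ni_6W minus its response in Ni_3D was 9.35 on the log2 scale (SE 1.60), with an adjusted p of 0.12 in edgeR, Benjamini-Hochberg adjusted, and none of all genes (0%) was called in this difference.

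After the 2 nickel-free weeks none of the 29 genes was called against Control_6W by edgeR, nor were any of all genes (0%); 4 collagen genes and 13.1% of all genes had an unadjusted p under 0.05. COL1A2 was at 64.2 and 27.01 CPM (6.93, SE 1.29, adjusted p = 0.26) and COL5A1 at 288 and 298 CPM (1.88, SE 0.80, adjusted p = 0.35), both above both controls. Ni_6W+2W lay above Control_6W for 11 of the 29 genes (37.9%, against 23.3% of all genes tested) and below it for 2 (6.9%, against 20.8%), COL4A6 and COL16A1. DESeq2 called 1 collagen gene in this comparison, COL1A2, among 328 genes in all. Against Ni_6W itself no collagen gene was called in Ni_6W+2W by edgeR or DESeq2, nor was any of all genes by edgeR (0%), and 4 had an unadjusted p under 0.05 (13.8%, against 6.59% of all genes). Ni_6W+2W lay above Ni_6W for 2 genes (6.9%, against 13% of all genes) and below it for 6 (20.7%, against 12.9%). The median log2 difference from Ni_6W was -0.14 beside 0 over all genes. COL5A3 differed between the Ni_6W+2W replicates, with 33.5 CPM in replicate 1 and 2.94 CPM in replicate 2. Ni_6W, Ni_6W+2W and the clones were each set against the same 2 Control_6W libraries.

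**Figure D3:**
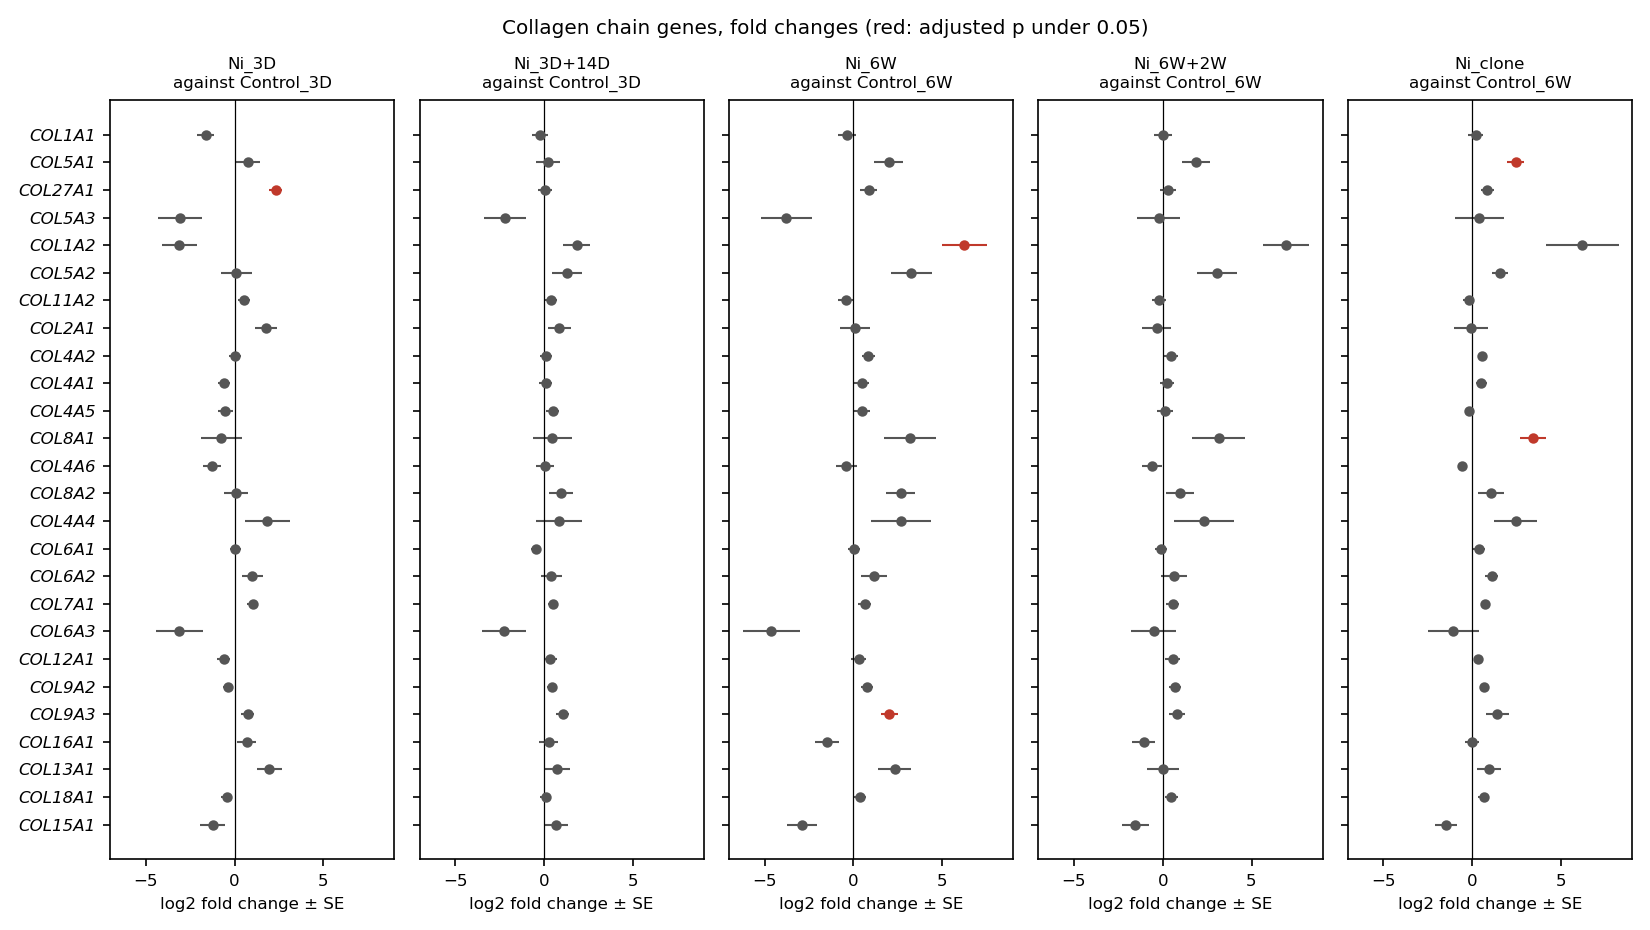
Log2 fold changes ± SE (horizontal axis) of 26 collagen genes (rows, by class) in 5 comparisons with a control, with genes at an adjusted p under 0.05 in red; COL4A3, COL11A1 and COL17A1 are left out because each had 0 reads in at least 1 control library. Red points are COL27A1 in Ni_3D, COL1A2 and COL9A3 in Ni_6W and COL5A1 and COL8A1 in the clones.

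Against Control_6W the clones had 2 of 28 tested genes called, both higher, where 5.26% of all 14172 genes tested were called, 2.89% higher and 2.38% lower. At an unadjusted p under 0.05 there were 13 (46.4%, against 25.2% of all genes). COL5A1 was at 182 CPM in clone 1, a median of 425 CPM and 757 CPM in clone 3, against 79.2 and 79.8 CPM. Every clone lay above both Control_6W libraries, but unexposed Control_3D replicates 1 and 2, at 591 and 389 CPM, lay within the range of the clones. With clones as replicates the log2 fold change against Control_6W was 2.44 (SE 0.47, adjusted p = 0.026 in edgeR, Benjamini-Hochberg adjusted). COL8A1, a short-chain collagen of endothelial and corneal basement layers, was at 7.73 CPM in clone 1, a median of 27.01 CPM and 58.6 CPM in clone 4. In Control_6W it was at 2.41 and 2.88 CPM (3.44, SE 0.73, adjusted p = 0.035 in edgeR). In Control_3D replicates 1 and 2 it was at 41.8 and 42.3 CPM, again within the range of the clones. Both calls were lost when either control library, or clone 2, was left out (adjusted p up to 0.21 for COL5A1 and up to 0.23 for COL8A1), and that of COL8A1 also without clone 3 or clone 6. Of the 7 fibroblast markers TWIST2 was called higher in the clones, at 7.55 to 14.4 CPM against 3.28 and 2.02 CPM (1.93, SE 0.32, adjusted p = 0.018 in edgeR). Control_3D replicates 1 and 2 held 9.06 and 8.77 CPM of TWIST2. The summed level of the 7 markers was 471 to 823 CPM in the clones and 684 and 623 CPM in Control_6W. Their part in the result was not tested.

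COL5A2, which pairs with COL5A1, and COL6A2 also lay above both controls in every clone without passing the edgeR test. COL5A2 ran from 1.66 to 5.75 CPM against 1.15 and 1.22 CPM (1.56, SE 0.45, adjusted p = 0.072), and COL6A2 from 191 to 490 CPM against 119 and 190 CPM (1.09, SE 0.34, adjusted p = 0.087). In all, 5 of 28 genes lay above both controls in every clone (17.9%, against 11.8% of all genes tested) and 1, COL4A6, below (3.57%, against 12.5%). The median log2 fold change was 0.64 beside 0.01. Against Ni_6W+2W no collagen gene was called by edgeR, where 0.028% of all genes were, 0.014% in each direction; 2 had an unadjusted p under 0.05, beside 6.61% of all genes. Every clone lay above both Ni_6W+2W libraries for 1 gene, COL16A1 (3.57%, against 4.2% of all genes), and below them for 1, COL5A2 (3.57%, against 4.43%).

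COL1A2 was the most variable collagen gene among the clones. It was at 0.276 CPM in clone 1, which is within the Control_6W values of 0.184 to 0.547 CPM, at 10.1, 20.4, 12.5 and 25.6 CPM in clones 2 to 5, and at 98.7 CPM in clone 6. Clone 1 lay between the controls and the other 5 clones above them. The log2 fold change against Control_6W was 6.21 (SE 2.05, adjusted p = 0.10); without clone 1 it passed at 6.47 (adjusted p = 0.047). The standard deviation of its log2 CPM over the clones was 2.31, beside a median of 0.488 for the 28 collagen genes and 0.226 for all genes tested.

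COL5A3 and COL6A3 varied almost as much, with standard deviations of 2.19 and 2.04. COL5A3 was at 103 CPM in clone 3, 40.3 CPM in clone 2 and 19.1 CPM in clone 5, and at 2.67 to 2.85 CPM in clones 1, 4 and 6. COL6A3, the largest type VI chain, was at 6.83, 3.83 and 10.5 CPM in clones 3, 2 and 5 and at most 0.138 CPM in clones 1, 4 and 6. Both genes were thus high in clones 2, 3 and 5 and low in clones 1, 4 and 6. Among the other libraries Control_3D replicate 3, Ni_6W+2W replicate 1 and Control_6W replicate 1 were high for both, with 52.2, 33.5 and 31.9 CPM of COL5A3 and 17.1, 10.3 and 8.75 CPM of COL6A3. Control_3D replicates 1 and 2, at 72.0 and 39.6 CPM of COL5A3, held 3.24 and 2.21 CPM of COL6A3. The likeness is a description, and COL6A3 was chosen after its values were seen. The lowest value of 12 of the 28 genes was in clone 1, and the highest of 10 was in clone 3. How often these clones were extreme over all genes was not computed, so the counts are no trait of collagen genes.

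Among the leading genes of the other classes COL12A1, a FACIT chain that links fibrils to their surroundings, was at 1157, 1196, 695 and 850 CPM in Control_3D and at 959 and 300.2 CPM in Ni_3D. It was at 1279 and 1228 CPM in Ni_3D+14D, 845 and 1097 CPM in Control_6W, 1203 and 1193 CPM in Ni_6W and 1152 and 1685 CPM in Ni_6W+2W, and at 841 to 1481 CPM in the clones (median 1246). Ni_3D replicate 2 was the lowest library for this gene. COL18A1, a basement membrane multiplexin from which endostatin is cut, was at 664, 542, 425 and 321 CPM in Control_3D, 417 and 294 CPM in Ni_3D, 499 and 550.0 CPM in Ni_3D+14D, 327 and 361 CPM in Control_6W, 561 and 328 CPM in Ni_6W, and 579 and 375 CPM in Ni_6W+2W. Its clones ran from 313 CPM in clone 1 to 834 CPM in clone 3. COL6A1, the first type VI chain, was at 345 to 679 CPM in Control_3D, 502 and 609 CPM in Ni_3D, 495 and 408 CPM in Control_6W and 604 and 333 CPM in Ni_6W. None of these 3 genes was called by edgeR with all libraries, but COL12A1 was called lower in Ni_3D without Ni_3D replicate 1.

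Further tested genes were low or stood out in single libraries. COL8A2, the partner of COL8A1, was at 56.1 CPM in Ni_6W replicate 1 and 27.2 CPM in clone 1 and at 2.05 to 14.9 CPM in the other 18 libraries. COL15A1, the other multiplexin, was at 6.67 CPM in Control_6W replicate 2 and at most 2.05 CPM elsewhere. COL4A6, a type IV chain of epithelial basement membranes, was at 2.61 CPM in Ni_3D replicate 2 and at 11.6 to 26.0 CPM elsewhere. Each of these extremes thus belongs to 1 or 2 libraries, and the genes were chosen after their values were seen. COL2A1, COL11A1 and COL17A1 never exceeded 1.13, 1.502 and 0.613 CPM.

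Several collagen genes lie beside another on the genome. In the hg19 coordinates of the files COL4A4 and COL4A3 on chromosome 2, COL4A1 and COL4A2 on chromosome 13 and COL4A6 and COL4A5 on chromosome X lie head to head, 6, 135 and 347 bases apart. Between the GRCh38.p14 starts used for the sequences above lie 418, 126 and 379 bases for the same 3 pairs, so the distances depend on the annotated start. COL4A1 and COL4A2 chains join in the common basement membrane trimer. The RPKM of COL4A2 over COL4A1 was 2.22 to 4.39 over the 20 libraries, and that of COL4A5 over COL4A6 was 3.45 to 10.5. COL4A4 over COL4A3, whose reads are few, was 4.33 to 45.4 in the 19 libraries with both. COL4A1 and COL4A2 were both highest in Control_3D replicate 1, at 639 and 1498 CPM, while COL4A1 was lowest in Ni_3D replicate 2 (203 CPM) and COL4A2 in Control_3D replicate 4 (612 CPM). Whether unstranded reads could move between such neighbours was not tested, since the counting by strand is not given in the sources used here.

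**Figure D4:**
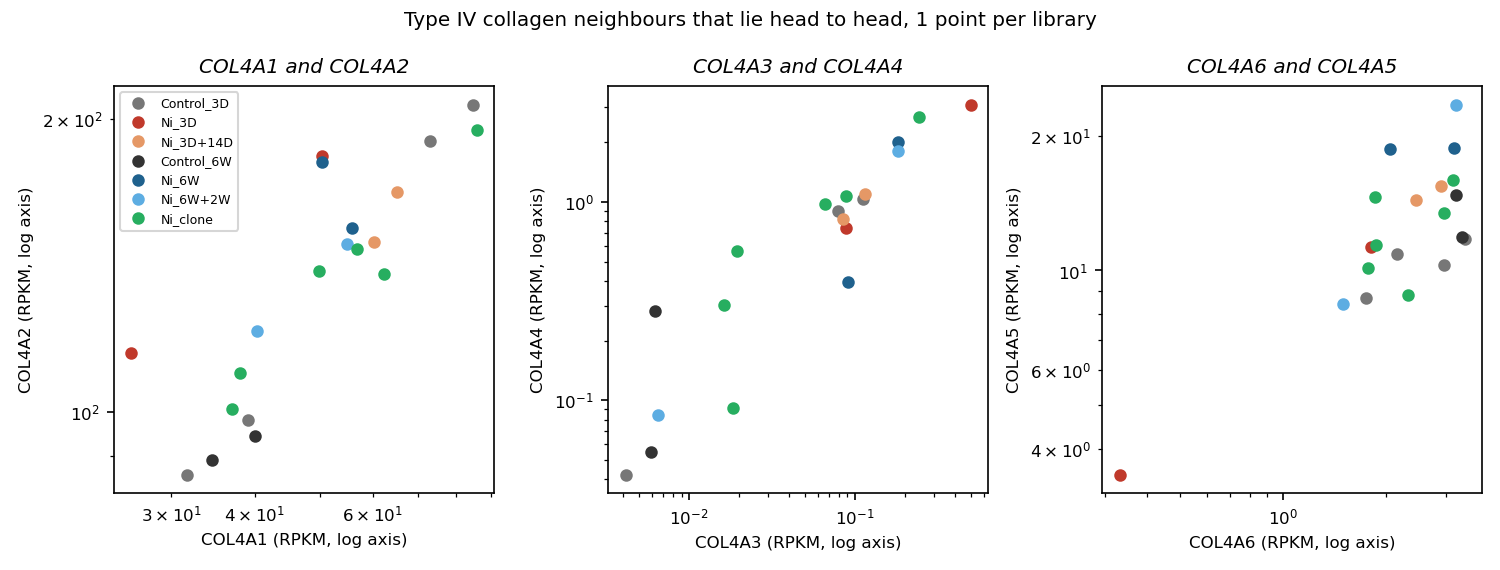
RPKM (log axes) of the 3 head-to-head type IV pairs, 1 point per library, coloured by group; for COL4A3 and COL4A4 the library without COL4A3 reads is left out. COL4A1 and COL4A2 span narrow ranges, 26.2 to 85.7 and 86.1 to 207 RPKM, while COL4A4 spans 0.0421 to 3.10 RPKM.

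The enzymes that act on collagen chains were read from lists of pathway genes. Of 22 genes for modification and folding 3 were called in Ni_3D, all higher and all subunits of prolyl 4-hydroxylase: P4HA1 was at 394 and 243 CPM against 58.1 to 103 CPM in Control_3D (2.03, SE 0.28, adjusted p = 0.0029), P4HA2 at 474 and 473 CPM against 136 to 173 CPM (1.66, SE 0.15, adjusted p = 0.00022) and P4HB at 2951 and 3933 CPM against 1565 to 1906 CPM (0.98, SE 0.20, adjusted p = 0.024), in edgeR, Benjamini-Hochberg adjusted. Of all genes tested 4.33% were called in Ni_3D (2.83% higher), and the median over the 22 was 0.04 beside 0.03. P4HA2 fell again from Ni_3D to Ni_3D+14D (-1.0, SE 0.18, adjusted p = 0.045), and none of the 22 was called in Ni_6W, Ni_6W+2W, Ni_3D+14D or the clones against the controls.

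LOX, the lysyl oxidase that starts cross-links, was the 1 gene of 6 cross-linking genes called in Ni_3D, beside 2.83% of all genes called higher. It was at 321 CPM in Ni_3D replicate 1, a library with ESR1 reads, and at 119 CPM in replicate 2. Control_3D was at 47.2 to 67.1 CPM (1.88, SE 0.34, adjusted p = 0.015 in edgeR). MRC2, a receptor that takes up collagen, was the 1 of 8 tested receptor genes called in Ni_3D (1.29, SE 0.32, adjusted p = 0.044 in edgeR), at 666 and 508 CPM against 207 to 268 CPM. Without Control_3D replicates 3 and 4 edgeR called 121 in place of 647 of all genes in Ni_3D. Whether the calls of LOX, MRC2 and the prolyl 4-hydroxylase subunits hold with libraries left out was not tested. In the clones 2 of 8 propeptide-processing genes were called, 1 in each direction, beside 2.89% of all genes higher and 2.38% lower: ADAMTS3 was at 3.27 to 5.80 CPM against 2.02 and 0.917 CPM (1.68, SE 0.38, adjusted p = 0.037), and TLL1 was at 4.05 and 8.20 CPM in Control_6W and at most 0.117 CPM in any clone. None of the tested proteoglycan genes that bind collagen was called in any comparison with a control. In Control_3D TLL1 was at 0.222 and 0.784 CPM in replicates 1 and 2 and at 4.33 and 3.06 CPM in replicates 3 and 4, so it was low in the pair in which COL5A1 was high.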

How the data were processed

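RNA from a TruSeq RNA kit was sequenced, per the labels. The authors deposited raw read counts per RefSeq gene, one file per library; per the file headers an RPKM value, a level per kilobase and library size computed by the authors, stands beside each count. The submitters' processing notes name STAR 2.4, DESeq, DESeq2, GRCh37 and hg19, without roles; how reads were counted and the use of strand are, in the sources used here, not given. The authors' 10 comparison tables were not used, and 0 columns of other series were found. Libraries were joined by RefSeq identifier because symbols had been changed by a spreadsheet in 2 libraries.

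In edgeR 4.0.16 under R 4.3.3, 1 joint model with a mean for each group took the counts of the 14 non-clone libraries (TMM; filterByExpr at minimum count 10 and minimum total 15; robust quasi-likelihood test). Separate models held the clones beside Control_6W and beside Ni_6W+2W, with the clones as replicates. The p-values of those models cover the spread among these clones and libraries, not a spread among separate exposures. p-values were adjusted over all genes by the Benjamini-Hochberg method, and an adjusted p under 0.05 was called. The biological coefficient of variation was 29.7% for the first fit and 24.7% and 24.9% for the clones. CPM uses the TMM library sizes of the 20 libraries; levels of different genes were compared by RPKM. Standard deviations over clones use log2(CPM + 0.5). The scripts were tested on simulated data. Genes with values in single libraries or as ranges were COL1A2, COL5A1, COL5A3, the highest tested gene of each class and every called gene. COL5A2, COL6A2, COL6A3, COL7A1, COL4A1, COL4A4 and TLL1 in Control_3D were chosen after their values were seen. The members and gene lists were chosen with earlier results of these data known. Alternatives were DESeq2 1.42.0, RLE factors, no filter, a replicate block, only the compared groups, and leaving out libraries. Beside the counts of all genes called, they were read for collagen genes only. The calls of pathway genes and fibroblast markers were not checked under them. The comparison of the long with the short response was added after seeing the data.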

Additional observations from a re-analysis of the deposited data

Results flagged for a closer look

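COL1A2 stood apart in clone 6, at 98.67 CPM beside 0.2761 to 25.59 CPM in the other 5 clones. COL6A1 stood apart in clone 3, at 1026 CPM beside 410.4 to 562.6 CPM. COL9A3 was low in Control_3D replicate 3, at 1.507 CPM beside 2.107 to 2.131 CPM in the other controls. These are the 3 cases in which 1 library of a group of 4 to 10 lay far from the rest, among 24 sets of 1 gene in 1 group. Chance gives about 1 in 20 for normally distributed values in separate sets. The sets here share libraries and hold CPM without logs, so that rate is only a rough guide.

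For COL1A2 both Ni_3D libraries lay below every Control_3D library and both Ni_6W libraries above every Control_6W library, and the difference of the responses was 9.35 on the log2 scale, which was not called (adjusted p = 0.12 in edgeR, Benjamini-Hochberg adjusted). For COL12A1, a FACIT chain, both Ni_3D libraries lay below the mean of Control_3D and both Ni_6W libraries above that of Control_6W, with a difference of 0.92 on the log2 scale that was not called. Ni_3D replicate 1 (959 CPM) lay above Control_3D replicates 3 and 4 (695 and 850 CPM), and neither response passed the edgeR test.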

How the results depend on the processing

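The counts of collagen genes called by edgeR depended on several settings, and the number of all genes called, given after each as "of", moved too; the cause was not tested. In Ni_3D 1 of 647 was a collagen gene, with 5 of 1881 by DESeq2, 2 of 92 under the replicate block, 2 of 75 without the 2 libraries with TFF1 and ESR1, 9 of 1174 without Control_3D replicates 1 and 2 and 2 of 121 without replicates 3 and 4. In Ni_3D+14D 0 of 0 were called, and 3 of 112 without Control_3D replicates 1 and 2. In Ni_6W 2 of 367 were called, with 9 of 2070 by DESeq2, 1 of 416 without the filter, 4 of 761 under the block and 5 of 111 with only the compared groups. In Ni_6W+2W 0 of 0 were called, with 1 of 328 by DESeq2, 2 of 128 under the block and 3 of 39 with only the compared groups. Ni_3D+14D against Ni_3D gave 0 of 38, and 2 of 443 by DESeq2, 2 of 33 under the block and 2 of 243 with only the compared groups. The clones against Control_6W gave 2 of 746, with 7 of 1970 by DESeq2, 1 of 669 without the filter and 0 of 21 under the block. The Ni_6W response minus the Ni_3D response gave 0 of 0, and 1 of 190 by DESeq2, 1 of 70 under the block and 1 of 101 without Control_3D replicates 3 and 4. Leaving out each library in turn gave 0 (without Ni_3D replicate 2) to 3 (without Ni_3D replicate 1) in Ni_3D, 0 (without Control_6W replicate 2 or Ni_6W replicate 1) to 5 (without Ni_6W replicate 2) in Ni_6W, 0 to 1 in Ni_3D+14D against Ni_3D, 0 (without Control_6W replicate 2 or clone 2) to 5 (without clone 1) in the clones against Control_6W and 0 to 2 in the difference. With 2 controls of 6 weeks, a left-out library leaves 1, assumed to vary like the other libraries in the fit.

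The log2 fold change of COL5A1 in Ni_3D was -0.02 under the replicate block and 0 without Control_3D replicates 3 and 4, from 0.76. The labels give replicates only numbers, and the correlation of same-numbered deviations ran from -0.428 to 0.264, so the block is not a pairing of the design. RLE size factors changed no count of called collagen genes, though in Ni_3D 638 in place of 647 genes in all were called. Ni_6W+2W against Ni_6W and the clones against Ni_6W+2W gave 0 collagen genes under every setting. The 15 untested genes had too few reads for a test at this depth.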
